A study of Arabidopsis thaliana with 12 samples.

Results

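The genes described here gave higher signals on every array labelled ago1-27 than on any array labelled wild type, by a wide margin. A probe set was taken as a member when its lowest log2 signal on the 6 ago1-27 arrays exceeded its highest on the 6 wild-type arrays by at least 1.5, here called the gap, and when it lay above the array's 40th percentile on all 6 ago1-27 arrays. Of 22746 probe sets other than controls, 96 met the gap, 80 of these also lay above the percentile, and 79 were kept. BCAT4, a branched-chain aminotransferase of methionine-derived glucosinolate synthesis, met both conditions and was left out by definition, as were any of LHCB4.2, PSAN, COR47, PDF1.2 and plastid-encoded genes, none of which met them where the annotation names them. The annotation used here names 1 gene for 28 members (35.4%, against 59.4% of all probe sets other than controls) and none for the other 51. An unnamed member could therefore be any gene of the array, a plastid-encoded one included.

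Leaf RNA of 4-week-old Arabidopsis thaliana plants, all in the Col-0 background and grown at 23 °C with 12 h of light a day, was hybridised to 12 ATH1 arrays, each giving 1 signal per probe set. The tested genotype was ago1-27, a hypomorphic allele of ARGONAUTE1, set against Col-0 wild type (WT). Plants of each genotype were either submerged for 12 h in the dark under water reaching 10 cm above the leaves or kept in the dark for 12 h without submergence. This gave 4 groups (ago1-27 submerged, ago1-27 dark, WT submerged and WT dark) of 3 biological replicates, each a pool of 4 plants. No illuminated group was among these samples, and ago1-27 is represented by a single allele.

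ARGONAUTE1 is the main effector of plant microRNAs: it binds a microRNA, is guided to transcripts that pair with it, and cleaves them or blocks their translation. A hypomorphic allele keeps part of this activity, so targets of microRNAs and genes downstream of them can both be misexpressed in such plants. Submergence in darkness deprives leaves of oxygen and of light, and the low-oxygen response is known to raise fermentation genes while transcripts for growth and photosynthesis are often held back.

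The labels of these arrays need care before any direction is read. Genes of the low-oxygen response divided the arrays by labelled genotype: of 25 measured (44 were listed), 23 had all 6 WT arrays above all 6 ago1-27 arrays. Their summed signal was 7438 to 14426 on the ago1-27 arrays and 138861 to 164476 on the WT arrays, while all submerged arrays lay above all dark arrays for 1 of the 25 genes in ago1-27 (18.4% of all probe sets tested) and for 6 in WT (15.5% of all). An exchange of labels between the ago1-27 submerged and the WT dark arrays cannot be told apart from a genotype difference on these genes. Under such an exchange the 6 arrays called ago1-27 below would be the 6 dark arrays. The control probe set U12639 divided the arrays by labelled treatment, at 1.7 to 44.7 on the submerged and 24471 to 29779 on the dark arrays, and under the same exchange it would divide them by genotype. Which of these 2 readings holds was not tested. ARGONAUTE1 itself is not named by the annotation used here. All groups below are named as labelled.

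An RNA quality ratio and some leaf markers also moved with the labelled genotype, and their part in the results was not tested. For the GAPDH control, the signal ratio of 3' to 5' probe sets was 1.69 to 2.24 on the ago1-27 arrays and 1.23 to 1.52 on the WT arrays, with no overlap. The other 3' to 5' ratios overlapped, at 7.06 to 12.55 and 5.57 to 8.5 for actin and 2.53 to 3.55 and 2.54 to 2.96 for ubiquitin. RCA and PRK, 2 of 6 listed markers of leaf mesophyll that the annotation names, had a summed signal of 41766 to 55408 on the ago1-27 arrays and 26874 to 39318 on the WT arrays. TRY, the 1 trichome marker measured of 3, was at 157 to 604 on the ago1-27 arrays and at 22.7 to 78.4 on the WT arrays. RCA, PRK and TRY each had all ago1-27 arrays above all WT arrays, as did 12.1% of all named probe sets. Their gaps were 0.12, 0.03 and 1.0, where the median log2 signal of an array was on average 0.20 higher on ago1-27 arrays. FMA, the 1 guard cell marker of 4, overlapped, at 83.0 to 169 on the ago1-27 arrays and at 62.7 to 112 on the WT arrays. Markers of flower, root, epidermis and meristem are not named by the annotation used here. In whole leaves, fewer cells of a type and less RNA per cell cannot be told apart.

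Across the 79 members the gap ranged from 1.51 to 3.70, with a median of 1.76, and the difference of mean log2 signals between ago1-27 and WT ranged from 1.95 to 5.26, with a median of 2.89. The members were chosen by these signals, so the genotype values are a description with no test. The opposite rule, with every WT array above every ago1-27 array by the same gap and above the percentile on all WT arrays, held for 285 probe sets. All 6 ago1-27 arrays lay above all 6 WT arrays, by any margin, for 3166 probe sets, or 13.92%. At the edge of the rule, AT5G66590, AT1G64450 and AT2G45600 lay just inside with gaps of 1.54, 1.52 and 1.52, and AT2G32150, AT3G43610 and AT5G06480 just outside with 1.49, 1.48 and 1.48.

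**Figure D1:**
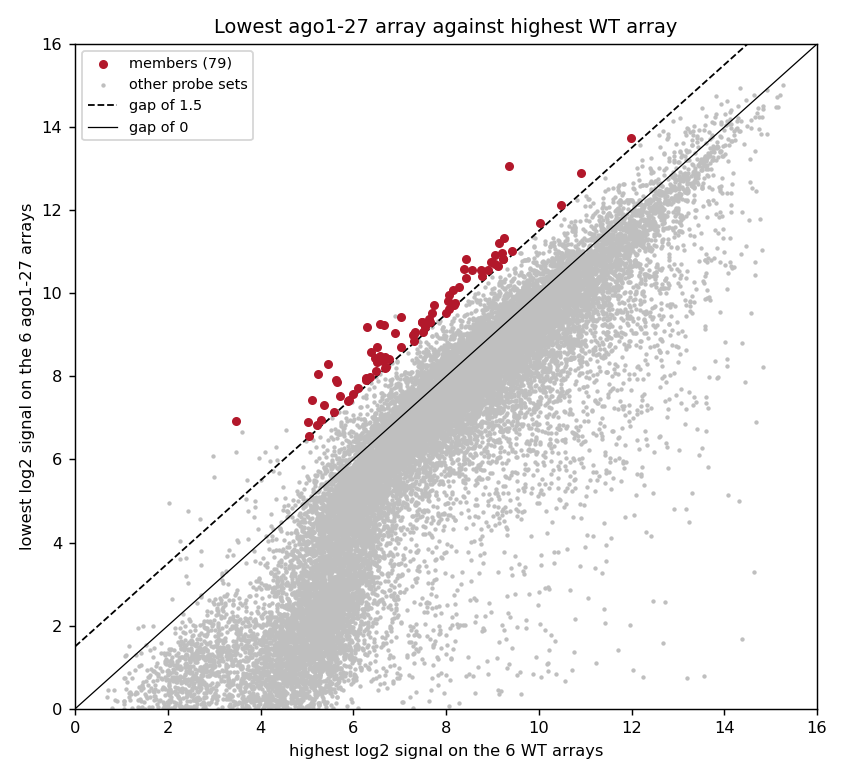
Each point is a probe set, with its highest log2 signal on the 6 WT arrays across and its lowest log2 signal on the 6 ago1-27 arrays upwards, controls left out and values under 0 not shown. The 79 members (red) lie on or above the dashed line that marks a gap of 1.5, and grey points above that line failed the percentile or were left out by name.

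The signal of a WT array was often too low to be told from background. No detection calls were used, so the 40th percentile of each array (72.0 to 120 signal units) served as a limit for low signals. All 6 WT arrays lay at or under it for 20 members, 1 to 5 arrays for 21 members, and none for 38. Where all 6 did, the fold between the genotypes is given as a bound against this limit. Signals of different probe sets are not set against each other, because each probe set has its own brightness.

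The 2 named members grouped here under chloroplast and photosynthesis were well above the limit on all 12 arrays. Each named member was placed in a single group, so members of other groups may also act in chloroplasts. AT1G51400 encodes a 5 kDa protein of photosystem II, the complex that splits water in the light reactions. It gave signals of 16988, 16285 and 14551 in submerged ago1-27 and 13769, 15463 and 14148 in ago1-27 in the dark, against 4069, 4034 and 3943 in submerged WT and 3302, 1795 and 1649 in WT in the dark. The ago1-27 arrays differed little among themselves, and WT dark replicate 1 stood near the submerged WT arrays. AT5G14260, a protein of the Rubisco methyltransferase family, ranged from 1628 to 2542 (median 2205) on the ago1-27 arrays and from 416 to 552 (median 496) on the WT arrays, a ratio of geometric means of 4.35.

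Membrane transport was represented by 4 named members. AT3G21670, the nitrate transporter NPF6.4 of the NRT1/PTR family, had signals of 2003 to 3866 (median 3291) on the ago1-27 arrays and 223 to 590 (median 460) on the WT arrays, a ratio of 7.86. Its relative AT2G40460, another member of that peptide and nitrate transporter family, lay at 160 to 254 and at 8.7 to 41.6, so all its WT arrays were under the limit and it was at least 2.61-fold higher on the ago1-27 arrays. AT4G04750, a member of the sugar transporter family, was at least 2.81-fold higher, with a median of 234 on the ago1-27 arrays and 35.9 on the WT arrays. AT2G21340 is the homologue of EDS5, the chloroplast exporter that supplies salicylic acid synthesis. It had the narrowest spread of these 4, with 1079 to 1347 on the ago1-27 arrays and 218 to 283 on the WT arrays, a ratio of 4.80.

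The largest named group, with 6 members, held proteins of the cell surface, the secretory pathway and lipids. AT5G45950, a GDSL-type esterase or lipase, had the widest gap of any named member, 2.85. Its signals were 394, 413 and 521 in submerged ago1-27 and 414, 317 and 350 in ago1-27 in the dark, against 44.0, 11.4 and 32.0 in submerged WT and 16.2, 3.4 and 3.0 in WT in the dark. All 6 WT values were under the limit, which bounds the difference at 4.88-fold or more. AT1G60590, a pectin lyase-like polygalacturonase that acts on wall pectin, lay at 601 to 1381 on the ago1-27 arrays and at 4.5 to 100.9 on the WT arrays. Only WT dark replicate 1 exceeded the limit there, while the other WT dark arrays were at 4.6 and 4.5.

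AT5G48490 encodes DIRL1, a lipid transfer protein related to DIR1 of systemic acquired resistance. Its signals were 4699, 4003 and 2357 in submerged ago1-27 and 2919, 3043 and 2815 in ago1-27 in the dark, against 562, 327 and 360 in submerged WT and 281, 96.8 and 114 in WT in the dark. The ratio of geometric means between the genotypes was 13.2. AT3G26960, of the Ole e 1 and extensin family of secreted proteins, was at least 4.26-fold higher in ago1-27, with medians of 364 and 30.9. AT5G66590, a secreted CAP protein of the PR-1 type, had medians of 1097 and 247 (ratio 4.55). AT5G62130, a Per1-like protein of the kind that remodels GPI lipid anchors in yeast and mammals, had medians of 743 and 178 (ratio 4.75).

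Among 3 named members of protein turnover, the senescence-associated subtilisin protease SASP1 (AT3G14067) had signals of 1321 to 2144 (median 1923) on the ago1-27 arrays and 167 to 347 (median 225) on the WT arrays, a ratio of 7.56. AT1G75460, a protein with the substrate-binding domain of LON proteases, had medians of 1918 and 347 (ratio 5.91). PUB26, a U-box ubiquitin ligase that acts in immune and cold signalling, was at 248 to 447 on the ago1-27 arrays and at 4.1 to 77.8 on the WT arrays. The WT values of PUB26 were scattered and under the limit, so the difference is given as at least 4.10-fold.

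Of the 2 named members that bind nucleic acids, AT2G34620 belongs to the mTERF family, which acts on transcripts and transcription in plastids and mitochondria. It gave 2635, 2488 and 1505 in submerged ago1-27 and 1649, 1776 and 1508 in ago1-27 in the dark, against 429, 355 and 299 in submerged WT and 260, 93.4 and 126 in WT in the dark. AT1G76110, an HMG-box protein with an ARID DNA-binding domain, ranged from 354 to 872 (median 824) on the ago1-27 arrays and from 2.7 to 102 (median 61.8) on the WT arrays. The lowest ago1-27 value of AT1G76110 came from submerged replicate 3 and the lowest WT value from dark replicate 3.

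Enzymes without a pathway in common made up another 3 members. AT3G09580, a flavin-dependent oxidoreductase, had the next widest gap among the named members, 2.70, with signals of 615 to 1117 (median 861) on the ago1-27 arrays and 45.6 to 94.9 (median 62.6) on the WT arrays. AT5G02230, a hydrolase of the haloacid dehalogenase superfamily, gave 804, 883 and 537 in submerged ago1-27 and 621, 808 and 677 in ago1-27 in the dark, against 162, 141 and 146 in submerged WT and 69.1, 96.8 and 40.9 in WT in the dark. AT2G45600, of the alpha/beta hydrolase superfamily, was at least 3.17-fold higher in ago1-27.

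ZW9, with a TRAF-like domain, AT4G31890, with armadillo repeats, and AT1G68780, with leucine-rich repeats of the ribonuclease inhibitor type, carry domains known for binding other proteins. ZW9 was at least 3.68-fold and AT4G31890 at least 2.14-fold higher in ago1-27, both with all WT arrays under the limit. AT1G68780 lay at 345 to 466 on the ago1-27 arrays and at 73.8 to 110 on the WT arrays, a ratio of 4.60. No role is given here for the other 5 named members. Of these, AT4G33666 had medians of 2729 on the ago1-27 and 273 on the WT arrays (ratio 9.75), AT5G59080 of 1128 and 213 (5.83), and AT1G21500 of 2452 and 484 (5.87). AT5G62140 was at least 4.89-fold and AT1G64450 at least 2.56-fold higher.

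**Figure D2:**
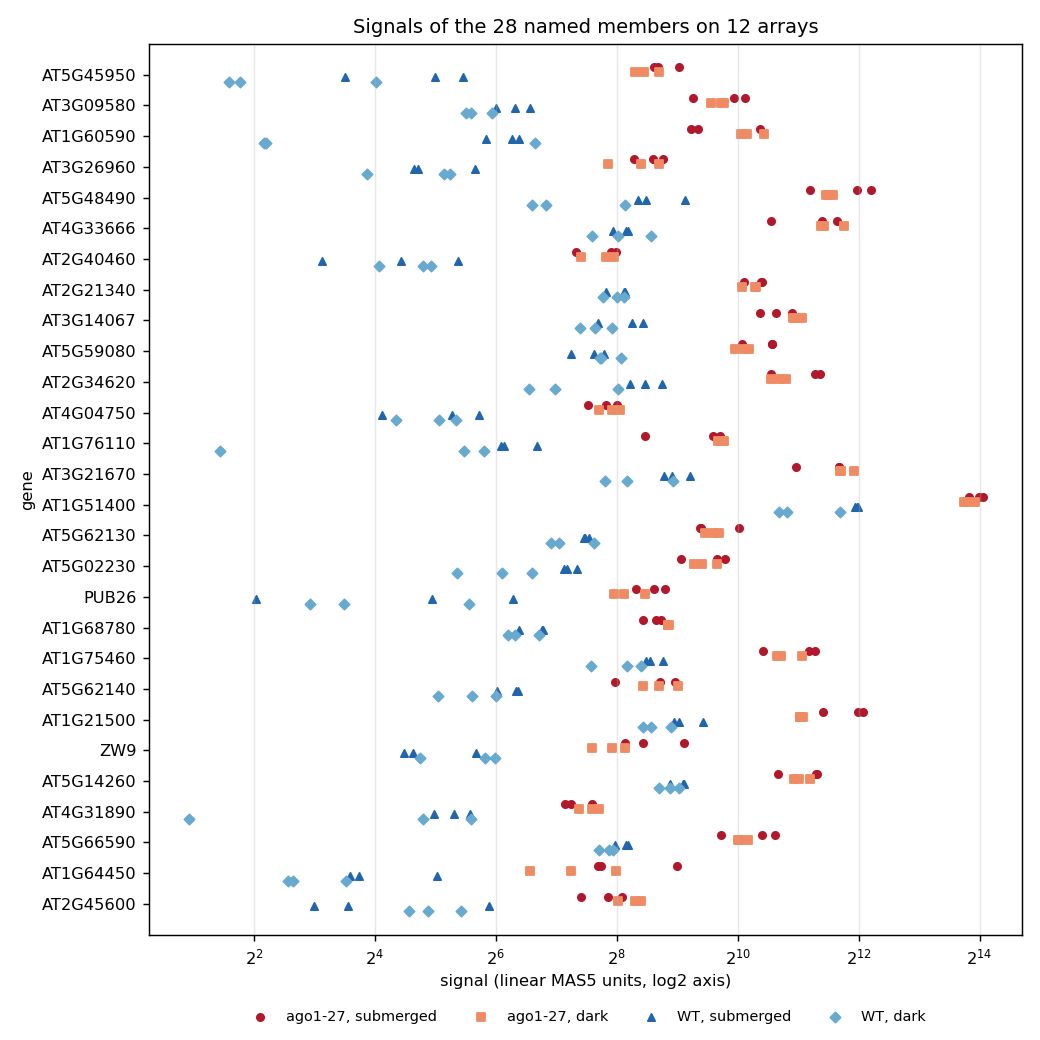
Signals of the 28 named members on the 12 arrays, on a log2 axis, with genes from top to bottom by falling gap and 1 point per array. For AT5G45950 the ago1-27 arrays lie between 317 and 521 and the WT arrays between 3.0 and 44.0. The points of the 2 genotypes are apart in every row because the rule chose them so.

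The widest gap of all belonged to a probe set with no named gene, 258239_at, at 3.70. Its signals were 14537, 12725 and 9079 in submerged ago1-27 and 11640, 12100 and 8548 in ago1-27 in the dark, against 659, 444 and 547 in submerged WT and 247, 123 and 130 in WT in the dark. The next, 264684_at with a gap of 3.47, was dim throughout, at 122 to 192 on the ago1-27 arrays and 2.7 to 11.1 on the WT arrays. In all, 18 members had a gap of at least 2, of which 5 were named. The median signal on the ago1-27 arrays was over 1000 for 31 members and under 300 for 12.

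Not all arrays bore on the gap alike. Submerged ago1-27 replicate 3 was the lowest of the ago1-27 arrays for 32 of the 79 members, and submerged WT replicate 1 the highest of the WT arrays for 30. Submerged ago1-27 replicate 3 also correlated least with its group (mean r 0.935, against 0.954 to 0.957 for the other submerged ago1-27 arrays), as did dark WT replicate 1 (0.937, against 0.951 and 0.956). Without submerged ago1-27 replicate 3 the rule would hold for 119 probe sets, the 79 included. The scaling mattered too. The median log2 signal of an array was on average 0.20 higher on ago1-27 than on WT arrays, and with each array centred on its median 36 probe sets met the rule, all of them among the 79.

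Of 91 genes on a list of known microRNA targets, the annotation names 10, and none of these was a member, where 0.347% of all probe sets were. At so low a share, 10 genes cannot show whether targets are among the members. Targets among the 51 unnamed members would be missed. PHV, a leaf polarity regulator targeted by miR165 and miR166, and the pentatricopeptide repeat gene AT1G63080 had all ago1-27 arrays above all WT arrays, with gaps of 0.10 and 0.42. These are 2 of 10 targets, where 12.1% of all named probe sets did so. PHV averaged 697 in submerged ago1-27 and 437 in ago1-27 in the dark, against 308 in submerged WT and 223 in WT in the dark. CCS, on the same list, averaged 1142 in submerged ago1-27 and 1209 in submerged WT, against 3202.5 and 2688 in the dark. AGL16 averaged 324 and 494 submerged, against 1030 and 1014 in the dark. The means of CCS and AGL16 followed the labelled treatment, and under the exchange of labels named above they would follow the genotype. Of 44 listed low-oxygen genes the annotation names 25, and none of these was a member, nor was either of the measured mesophyll markers. The same limits hold for these lists.

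The named members were spread over all 5 nuclear chromosomes, with 9, 4, 4, 3 and 8 on chromosomes 1 to 5, where 26.1%, 14.7%, 20.0%, 14.8% and 23.5% of the named probe sets tested lie. AT5G62130 and AT5G62140 are immediate neighbours in the RefSeq gene order on chromosome 5. The next gene, AT5G62150, went the other way, at means of 130 and 114 in submerged and dark ago1-27 against 1029 and 1705 in submerged and dark WT. Of 23 measured neighbours of the members that were not members themselves, 4 had all ago1-27 arrays above all WT arrays, among them AT4G33660 and AT4G33670 on either side of AT4G33666. Of all named probe sets, 12.1% did.

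The rule pooled submerged and dark arrays of each genotype, so the effect of submergence within a genotype was not used to choose the members and could be tested. Tests were made with limma over 14812 probe sets, and a change was called at a Benjamini-Hochberg adjusted p under 0.05. The demand that all arrays of a genotype stay on 1 side of the gap limits how far a member could move. The doubt about the labels bears on these contrasts too. If the ago1-27 submerged and WT dark labels were exchanged, the contrast called submergence in WT would set WT against ago1-27 under submergence, and the one called submergence in ago1-27 would set WT against ago1-27 in the dark.

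Many members were too dim in WT for a change there to be measured, and these passed the filter through the ago1-27 arrays. Counts that use the WT arrays are therefore also given for the 45 members whose mean log2 signal over the WT arrays exceeded the mean limit, beside the 13495 tested probe sets that did so. This subset was chosen after seeing the data.

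In WT, 9 of the 79 members (11.4%) were called with submergence, against 7.08% of all probe sets tested. All 9 rose, against 4.71% of all, and 0 fell, against 2.37%. Among the 45 members above the limit in WT, 7 rose (15.6%, against 4.73% of probe sets above it) and 0 fell (against 2.47%). At an unadjusted p under 0.05, 18 of these 45 were higher (40%, against 14.5%) and 1 lower (2.22%, against 8.25%). The photosystem II gene AT1G51400 averaged 4015 ± 65.1 in submerged WT and 2249 ± 915 in WT in the dark (SD, n = 3 each), a log2 change of 0.91 ± 0.20 (SE, adjusted p = 0.0193). The lipid transfer gene AT5G48490 rose by 1.47 ± 0.36 (adjusted p = 0.0285), and all 3 submerged arrays, at 327 to 562, lay above the dark arrays, at 96.8 to 281. The mTERF gene AT2G34620 rose by 1.30 ± 0.32 (adjusted p = 0.0286) and the hydrolase gene AT5G02230 by 1.199 ± 0.277 (adjusted p = 0.0224). The lipase gene AT5G45950 was called as well (adjusted p = 0.0499), but all its WT arrays were under the limit, which leaves no measurable fold. Its adjusted p was 0.579 once low signals were set to a floor, and 0.000649 to 0.579 over all alternatives.

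The other 4 calls in WT fell on unnamed members, 258239_at (log2 change 1.78 ± 0.27, adjusted p = 0.00286), 261801_at, 263114_at and 265724_at. Of the 9, AT5G45950 and 261801_at were not above the limit on average. Over the 45 members above it the median log2 change in WT was 0.35, against 0.06 over all probe sets above it. Over all 79 it was also 0.35, and 0.22 with arrays centred on their medians. All 3 submerged WT arrays exceeded all 3 dark ones for 12 of the 45 (26.7%, against 15.6%), and lay below them for 1 (2.22%, against 10.5%). Over all 79 members the counts were 18 (22.8%, against 15.5% of all probe sets tested) and 1 (1.3%, against 10.1%). The same comparison moved the actin 3' to 5' ratio, at 5.57 to 6.68 in submerged WT and 7.65 to 8.50 in WT in the dark, and its part in these changes was not tested. The GAPDH and ubiquitin ratios overlapped between submerged and dark WT.

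These counts depended on single arrays, and so did the share of all probe sets called. The 9 became 27, all higher, without WT dark replicate 1, where 17.0% of all probe sets tested were called. The median log2 signal of the members was 6.95 on that array, against 6.55 and 6.59 on the other WT dark arrays and 7.07 to 7.10 on the submerged WT arrays. The count was 2 without WT submerged replicate 1, 5 without WT submerged replicate 2, 3 without WT dark replicate 2 and 2 without WT dark replicate 3, where 2.17%, 3.36%, 3.06% and 3.09% of all probe sets were called. AT1G51400 (adjusted p up to 0.0818), AT5G48490 (up to 0.134), AT2G34620 (up to 0.127) and AT5G02230 (up to 0.0955) each lost the call without WT submerged replicate 1 or 2 or WT dark replicate 3. AT1G51400, AT5G48490 and AT2G34620 lost it also without WT dark replicate 2, and AT5G48490 and AT5G02230 without WT submerged replicate 3. Centring each array on its median also ended the calls of AT5G48490 (adjusted p = 0.0529), AT2G34620 (0.056) and AT5G02230 (0.0688), and quantile normalization that of AT5G02230 (0.0592).

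In ago1-27, 6 of the 79 members (7.6%) were called with submergence, against 8.38% of all probe sets tested. Of these, 2 rose, against 4.19% of all, and 4 fell, also against 4.19%. AT1G21500, for which no role is given, had signals of 4074, 4302 and 2730 in submerged ago1-27 and 2086, 2174 and 2093 in ago1-27 in the dark. Its log2 change was 0.78 ± 0.19 (SE, adjusted p = 0.0269), and the submerged arrays lay above the dark ones without overlap. In WT it was at 689, 494 and 523 submerged and at 475, 381 and 345 in the dark, a log2 difference of 0.50 ± 0.19 that was not called (adjusted p = 0.136). It was the 1 named member called in ago1-27.

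The other 5 calls in ago1-27 were unnamed. The probe set 253971_at fell by 1.97 ± 0.27 on the log2 scale (adjusted p = 0.00171), to 1621, 1654 and 877 in submerged ago1-27, against 5666, 5409 and 4635 in ago1-27 in the dark. It was at 130 to 216 in submerged WT and 169 to 290 in WT in the dark, where the groups overlapped. 263549_at rose by 1.08 ± 0.22 (adjusted p = 0.0117), and 261395_at, 263981_at and 247162_at fell. Over all members the median log2 change was 0.04, against 0.06 over all probe sets tested, and it was -0.11 with arrays centred on their medians. All 3 submerged ago1-27 arrays lay above all 3 dark ones for 15 members (19.0%, against 18.4% of all) and below them for 18 (22.8%, against 15.3%). The actin ratio was 10.7 to 12.6 in submerged ago1-27 and 7.06 to 8.72 in ago1-27 in the dark, while the GAPDH and ubiquitin ratios overlapped.

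Without ago1-27 submerged replicate 2, ago1-27 dark replicate 2 or ago1-27 dark replicate 3, 1 call was left in ago1-27 (4.63%, 2.39% and 2.48% of all probe sets were called in these fits). Without ago1-27 submerged replicate 3 or ago1-27 dark replicate 1, 3 were left (4.99% and 5.74% of all). AT1G21500 lost its call when any 1 ago1-27 array other than submerged replicate 3 was left out (adjusted p up to 0.0969), and with arrays centred on their medians (0.0970).

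**Figure D3:**
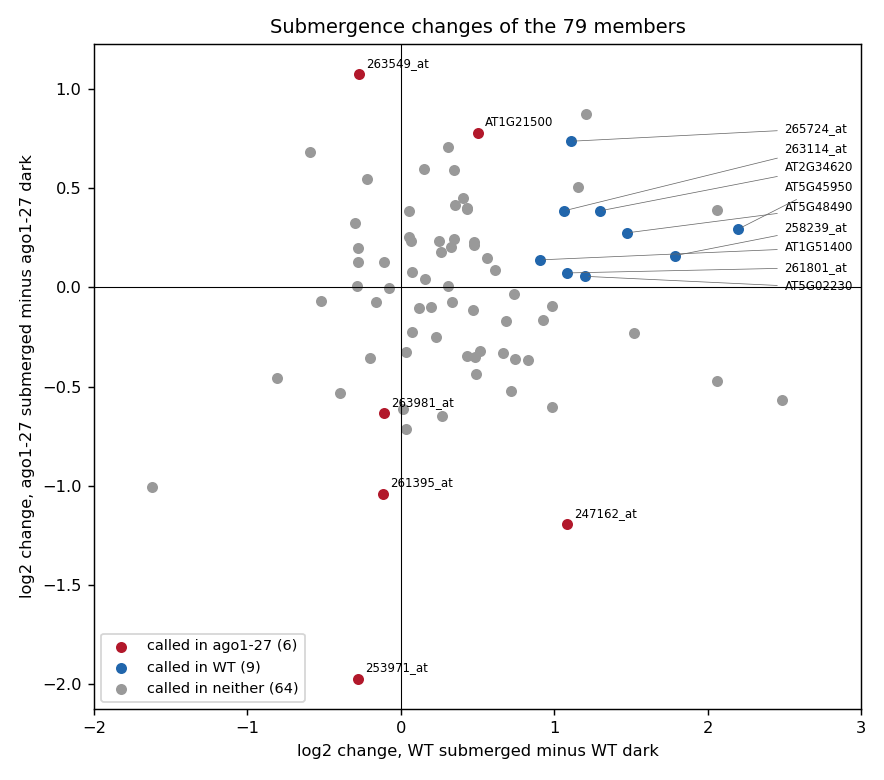
Log2 change with submergence in WT (across) and in ago1-27 (upwards) for the 79 members, with members called in either genotype coloured and named. The 9 calls in WT lie to the right of 0, and the 6 calls in ago1-27 lie on both sides of 0.

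The changes in the 2 genotypes share no arrays. Of the 45 members above the limit in WT, 20 were higher with submergence in both genotypes, 6 lower in both, 17 lower in ago1-27 and higher in WT, and 2 higher in ago1-27 and lower in WT. The plot of both changes includes members under that limit, whose position across is not a measured change. The difference itself was tested as the interaction, the change in ago1-27 minus that in WT. With limma 0 members were called, against 0.284% of all probe sets tested (0.142% with a positive and 0.142% with a negative difference). None of the 45 above the limit in WT was called either, against 0.304% of probe sets above it. At an unadjusted p under 0.05, 1 of these 45 had a positive difference (2.22%, against 6.02%) and 15 a negative one (33.3%, against 9.32%). Their median difference was -0.41, against -0.03 over all probe sets above the limit. Among the named members the hydrolase gene AT5G02230 (-1.14 ± 0.39, SE, adjusted p = 0.205) and the photosystem II gene AT1G51400 (-0.77 ± 0.28, adjusted p = 0.232) were not called. Without WT dark replicate 1 the count was 15 of the 79, 14 of them negative, where 4.93% of all probe sets were called, and 11 of the 45.

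Of the 28 named members, 22 were called in neither genotype. AT2G21340 had a log2 difference of 0.08 ± 0.15 in ago1-27 and 0.07 ± 0.15 in WT (adjusted p = 0.792 and 0.829), and AT5G14260 of 0.04 ± 0.17 and 0.16 ± 0.17 (0.904 and 0.637). AT3G21670 had -0.33 ± 0.26 in ago1-27 and 0.67 ± 0.26 in WT (0.465 and 0.154), and SASP1 -0.35 ± 0.20 and 0.48 ± 0.20 (0.305 and 0.183). A p above the threshold does not show that the signals were alike.

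**Figure D4:**
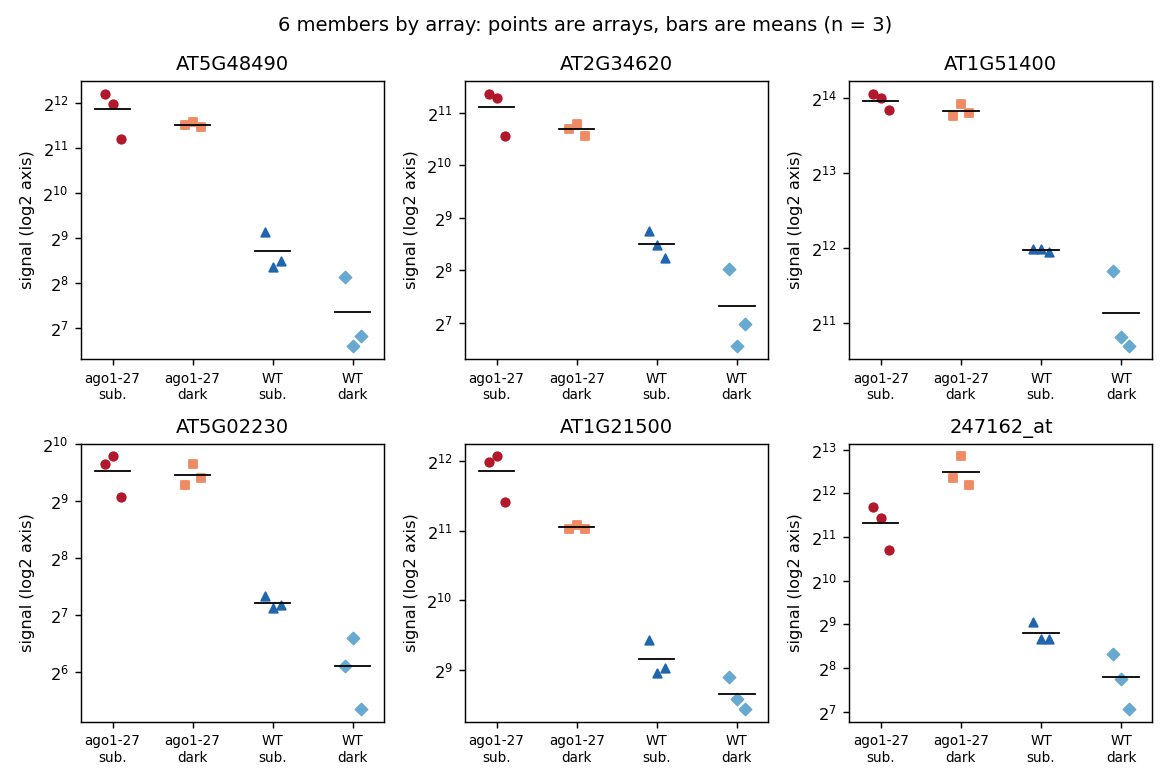
Signals of 5 named members and of the unnamed 247162_at in the 4 groups on log2 axes, with arrays as points and the mean of each group as a bar (n = 3). For AT1G51400 WT dark replicate 1, at 3302, stands above the other WT dark arrays, at 1795 and 1649, and for 247162_at the submerged arrays lie below the dark ones in ago1-27 and above them in WT.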

How the data were processed

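Per the submitters' processing notes the signals were made with MAS5 (no version given), and the authors deposited 1 signal intensity per probe set and array on a linear scale. The values bear a common scaling, since every array has a 2% trimmed mean of 500.0. All 12 columns were mapped by the labels. The number of arrays limits the precision.

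The 14812 probe sets that exceeded the 40th percentile on 3 or more arrays were tested as log2 signals. The model held 4 group means and an intensity trend (limma 3.58.1, R 4.3.3), and p-values were adjusted over all of them (Benjamini-Hochberg). Errors are SE for log2 changes and SD for signals. The pipeline was tested on simulated data. Where the labels say that replicates are separate plant pools, p-values measure the spread between pools. The main model did not pair arrays by replicate number. Of 18 same-numbered pairs, 8 had a residual correlation over 0.1 (range -0.28 to 0.35). Differently numbered pairs were not compared, so this does not settle whether the numbers pair the arrays. The alternatives were other filters, normalizations, variance models, a floor, a replicate block and leaving out arrays.

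The members and lists were chosen with earlier results of these data known. The rule for genes to name took the 12 widest gaps, the 8 brightest, those called and the 3 nearest the threshold, 21 of the 28 in all. The other 7 (AT1G68780, AT1G76110, AT4G31890, AT5G62130, AT5G62140, PUB26 and ZW9) were added after their values were seen, so that every named member is described. The RefSeq table (TAIR10.1 assembly) matched all 28 but holds no product names, so the planned grouping by words matched 0 of them, and roles are from general knowledge. Unnamed probe sets are given by probe identifier where singled out after their values were seen. Promoter motifs were not analysed here, and no sequences are printed.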

Additional observations from a re-analysis of the deposited data

Results flagged for a closer look

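The unnamed probe set 247162_at had submerged arrays below all dark arrays in ago1-27 and above all dark arrays in WT. Its signals were 3279, 2770 and 1666 in submerged ago1-27 and 5250, 7370 and 4667 in ago1-27 in the dark, against 532, 405 and 406 in submerged WT and 319, 216 and 133 in WT in the dark. The interaction was -2.28 ± 0.44 on the log2 scale (SE), which the limma fit did not call (adjusted p = 0.0513). It was singled out among the members for these opposite, non-overlapping shifts. How many of all probe sets show such shifts was not counted.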

How the results depend on the processing

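The limma counts depended on the weighting of arrays and on single arrays. With array weights 14 members were called with submergence in ago1-27, 39 in WT and 25 in the interaction, against 6, 9 and 0 as reported, and 18.2%, 29.8% and 12.1% of all probe sets were. Leaving out 1 array gave 1 to 7 calls in ago1-27, 2 to 27 in WT and 0 to 15 in the interaction. The shares of all probe sets called in these fits were 2.39% to 12.6%, 2.17% to 17.0% and 0.0339% to 4.93%. Without WT dark replicate 1 and ago1-27 submerged replicate 3, an exclusion chosen after seeing the data, 10, 36 and 18 were called (10.6%, 26.4% and 8.22% of all probe sets). Median centring gave 3 calls in WT, 2 higher and 1 lower, where 5.36% of all probe sets tested were called. For the interaction the 60th percentile filter gave 1 call, the floor 1 and quantile normalization 2 (0.743%, 0.56% and 0.385% of all probe sets tested). With the replicate block, which groups arrays by replicate number, 6 members were called in ago1-27, 11 in WT and 2 in the interaction. The shares of all probe sets were 7.96%, 7.43% and 0.338%. The number of probe sets that met the rule was 36 with median centring, 251 at a gap of 1, 18 at a gap of 2, 80 to 119 without 1 array and 133 without the 2 arrays. The cause of these shifts was not tested, beyond the wider or narrower gap itself. No named call reversed its direction under any setting run. Among the 45 members above the limit in WT, 4, 7 and 0 were called, against 8.8%, 7.2% and 0.304% of probe sets above it. Low signal limits the WT values of the 20 members under the limit on all WT arrays.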
